A study of Rattus norvegicus with 12 samples.

Results

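Thyroid hormone genes of the rat liver were taken as a set of 8, namely Dio1, Thrb, Thra, Klf9, Gpd2, Ttr, Slc16a10 and Bcl3. They were followed across 3 diets that differ in their content of wakame, an edible brown seaweed rich in iodine. The genes were found as probe sets, groups of short array probes aimed at one transcript, that carry one of these symbols and no other in the platform annotation. This gave 18 probe sets of the 31042 in the series that are not manufacturer controls, and 8 of 14217 named genes. A probe set was counted as measured where its standard deviation (SD) over the 12 arrays exceeded 0.01 on the log2 scale. By that rule 5 of the 18 were measured, 1 each for Dio1, Thrb, Klf9, Gpd2 and Bcl3, against 3240 of 31042 in the whole table. The nearest members on either side of the limit were far from it, with an SD of 0.0889 for Bcl3 and of 2.2e-08 for an unmeasured Thrb probe set.

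The animals were male Sprague Dawley rats aged 4 weeks at the outset and 9 weeks old when their livers were taken. After 1 week of acclimatization the diets were fed for 28 days. The rats ate a purified AIN-93G control diet, that diet with 0.1% wakame powder, or that diet with 1% wakame powder. Each diet was represented by 4 livers, each from a separate rat on an Affymetrix array of its own. Each diet had been fed to 6 rats in cages of 3, so an effect of the cage cannot be told apart from one of the diet. Whole liver was used, and in such bulk samples fewer cells of a type and less RNA per cell cannot be told apart. No circulating hormone or iodine values were analysed here.

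Over the measured probe sets the correlation between arrays of the same diet was 0.911 to 0.962, and no pair of arrays was identical. Of the 12 hepatocyte markers, 7 were measured, with a mean level of 11.89 to 12.26 log2 in control, 12.14 to 12.48 with 0.1% wakame and 11.75 to 12.30 with 1% wakame. This mean hides larger moves of single markers, and with each wakame diet 4 of the 7 lay above control and 3 below. Tat differed from control by −1.04 log2 with 1% wakame and 0.77 with 0.1% wakame, and Cyp2e1 by 0.67 and 0.90. Of the 5 thyroid gland markers, 4 had a probe set and 0 of these were measured. The difference between 3-prime and 5-prime probe sets of Gapdh, a sign of RNA integrity, ran from 1.04 to 1.07 log2 in control, from 0.958 to 1.20 with 0.1% wakame and from 1.04 to 1.42 with 1% wakame. For Actb it ran from 2.21 to 2.49 in control, 2.07 to 2.43 with 0.1% wakame and 2.28 to 2.43 with 1% wakame.

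Thyroid hormone leaves the thyroid mainly as the prohormone T4, and the liver both activates and clears it. Transthyretin, the product of Ttr, carries it in blood, and Slc16a10 encodes the membrane transporter MCT10. Deiodinase 1, the selenoenzyme made from Dio1, removes iodine from T4 to give the active hormone T3 and also degrades spent hormone. T3 binds the nuclear receptors encoded by Thra and Thrb, of which the beta form prevails in hepatocytes. The receptors sit on DNA as partners of retinoid X receptors, and hormone exchanges corepressors for coactivators there. Dio1, Klf9, Gpd2 and Bcl3 are known to respond to the hormone, and Dio1 is a common readout of hormone action in liver.

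The receptors recognise the hexamer AGGTCA, usually in pairs, so the promoters of the members were searched for it. The windows were the 250 bases before the annotated start in RefSeq's table of the rat build GRCr8, which held 9 windows for the 8 members, with 2 for Thra. On both strands, AGGTCA was found in 1 of the 9, that of Slc16a10, and in 14.1% of all 33469 windows. The looser form AGGNCA, which includes AGGTCA and was chosen after the windows had been seen, was found in 6 of 9 and in 51.2% of all. The direct repeat of AGGTCA with any 4 bases between its copies was found in 0 of 9 and in 1 window of all. The windows of the measured members with an AGGNCA match are shown because the diet comparisons turn on these genes. They run 5′ to 3′ along the gene, and capitals mark AGGNCA or its complement TGNCCT.
Dio1, chr5:127319785-127320034, minus strand: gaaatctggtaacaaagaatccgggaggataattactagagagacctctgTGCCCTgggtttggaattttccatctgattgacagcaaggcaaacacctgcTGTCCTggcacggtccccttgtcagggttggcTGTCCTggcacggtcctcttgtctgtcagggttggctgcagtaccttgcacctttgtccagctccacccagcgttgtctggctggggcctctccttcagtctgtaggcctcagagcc
Gpd2, chr3:62211403-62211652, plus strand: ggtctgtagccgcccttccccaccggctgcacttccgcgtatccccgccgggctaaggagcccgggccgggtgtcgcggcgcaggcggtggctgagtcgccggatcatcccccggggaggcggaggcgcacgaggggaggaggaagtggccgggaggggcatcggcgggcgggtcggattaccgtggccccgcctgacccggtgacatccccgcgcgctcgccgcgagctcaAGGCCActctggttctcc
Thrb, chr15:10461447-10461696, minus strand: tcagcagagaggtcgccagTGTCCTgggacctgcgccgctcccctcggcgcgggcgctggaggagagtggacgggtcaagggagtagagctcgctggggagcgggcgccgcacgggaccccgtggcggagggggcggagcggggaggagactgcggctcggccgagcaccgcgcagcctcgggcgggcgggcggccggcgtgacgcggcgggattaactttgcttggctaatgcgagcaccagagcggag

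The Dio1 window held 3 matches, which begin 200, 149 and 117 bases before the start. The last 2 lie in an exact repeat of 18 bases, gctgtcctggcacggtcc, whose copies begin 32 bases apart. A repeat at least as long was present in 1.67% of all windows. The longest exact repeat was sought in each window shown, and in those of Gpd2 and Thrb it had 8 bases. A repeat of at least 8 bases was present in 63.5% of all windows. The Gpd2 window held 1 match, 18 bases before the start, and the Thrb window 1, at 231 bases. The windows of Klf9, Bcl3 and Ttr held none. A match describes letters in the window only and is no evidence of a receptor there.

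None of the 5 measured genes passed the test for a difference between diets in any of the 3 comparisons. The test was limma, a linear model that shares information on the spread across probe sets, with p-values adjusted over all 3240 measured probe sets and a threshold of 0.05. In the same fit 54 of 3240 probe sets (1.67%) passed for 1% wakame against control, 2 (0.0617%) for 0.1% wakame against control and 0 (0.0%) for 1% against 0.1% wakame. At an unadjusted p under 0.05 the counts over all probe sets were 599 (18.5%), 371 (11.5%) and 219 (6.76%), and 0 of the 5 members in each. An F-test over the 3 diets called 6 probe sets (0.185%) and no member, with limma adjusted p from 0.5 for Gpd2 to 0.967 for Bcl3. With 4 rats a diet the intervals stayed wide for some genes, so each difference below is given with its 95% interval. All values are on the deposited log2 scale.

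Dio1, the deiodinase gene, lay closer together with 1% wakame than with the other diets, a difference in spread that was not tested. In control livers it was 7.20, 6.97, 7.16 and 8.00 log2 in replicates 1 to 4. With 0.1% wakame it was 7.94, 7.54, 7.86 and 7.00. With 1% wakame it was 7.31, 7.08, 7.11 and 7.10. All 4 livers of the 1% diet lay in the lower part of the range, while 3 livers of the other diets, 1 control and 2 with 0.1% wakame, reached 7.86 or more. The diets overlapped in each pairing.

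The mean of Dio1 was 7.33 ± 0.46 in control, 7.59 ± 0.43 with 0.1% wakame and 7.15 ± 0.11 with 1% wakame (SD, n = 4). The difference from control was 0.25 ± 0.24 log2 (SE) for 0.1% wakame, with an interval from −0.29 to 0.79 and a limma adjusted p of 0.762. For 1% wakame it was −0.19 ± 0.24, with an interval from −0.72 to 0.35 and a limma adjusted p of 0.754. That last value rested on the control rat at 8.00, since without it the difference was 0.04, and without control replicate 2 it was −0.31. With 1 array left out in turn, the difference for 0.1% wakame ran from 0.13 without control replicate 2 to 0.48 without control replicate 4, the rat at 8.00, with limma adjusted p from 0.423 to 0.925. It was also 0.13 without replicate 1 of the 0.1% diet, 0.16 without its replicate 3 and 0.45 without its replicate 4. Between the wakame diets, 1% lay below 0.1% by −0.44 ± 0.24 (interval −0.98 to 0.10, limma adjusted p = 0.81). On the deposited scale the interval for the 1% diet against control corresponds to folds from 0.605 to 1.28.

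**Figure D1:**
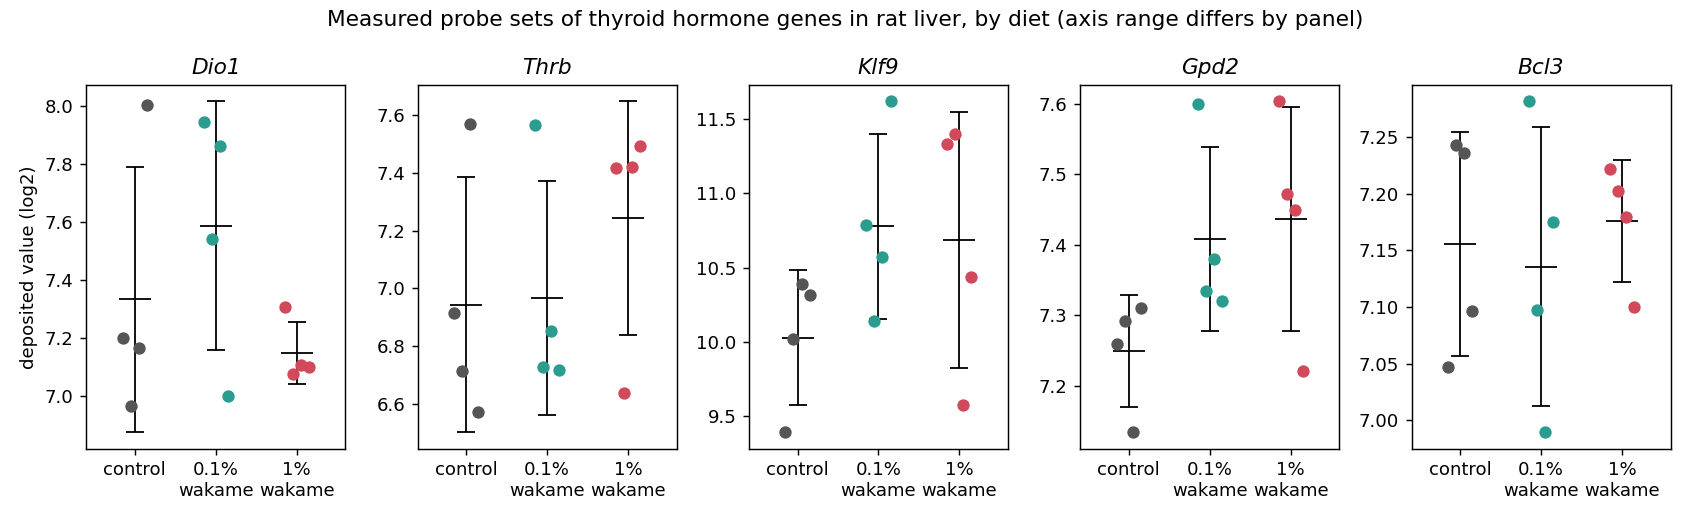
Deposited log2 values of the 5 measured genes, 1 panel each with its own axis range; each point is 1 rat, ordered by replicate within a diet, and the cross bar and whiskers are the mean and SD of 4 rats. Dio1 is tightly grouped with 1% wakame, between 7.08 and 7.31, and the Thrb points leave a gap between 6.92 and 7.42.

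Ttr, Slc16a10 and Thra had no measured probe set, so a change between diets could not be read for them. Ttr was at 13.96 log2 on all 12 arrays and Slc16a10 at 7.14, each with an SD below 1e-06. The 3 probe sets of the receptor gene Thra were at 6.84, 7.01 and 5.75, again with SDs below 1e-06. All 13 unmeasured member probe sets were of this kind, which is 72.2% of the members' probe sets, beside 89.6% of the whole table. The steps that gave such values are not given in the labels or the table, so they do not show that the RNA levels of Ttr, Slc16a10 or Thra were equal between diets.

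The receptor gene Thrb had 4 probe sets, of which 1 was measured. That one read 6.92, 6.71, 7.57 and 6.57 log2 in control, 7.57, 6.73, 6.85 and 6.72 with 0.1% wakame, and 7.42, 6.64, 7.42 and 7.50 with 1% wakame. The 12 livers fell into 5 between 7.42 and 7.57 and 7 between 6.57 and 6.92, with a gap of 0.50 log2 that took up 50.4% of the range. The upper set held 1 control liver, 1 with 0.1% wakame and 3 with 1% wakame. These counts describe the spread and were not tested.

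The mean of Thrb was 6.94 ± 0.44 in control, 6.97 ± 0.41 with 0.1% wakame and 7.24 ± 0.41 with 1% wakame (SD, n = 4). The difference from control was 0.02 ± 0.28 log2 (SE) for 0.1% wakame (interval −0.59 to 0.64) and 0.30 ± 0.28 for 1% wakame (interval −0.31 to 0.91). Limma adjusted p-values were 0.994 and 0.602. With 1 array left out in turn, the value for 1% wakame ran from 0.18 without control replicate 4 to 0.51 without control replicate 3, with limma adjusted p from 0.301 to 0.855. Without replicate 2 of the 1% diet it was 0.50. The 1% diet lay 0.28 ± 0.28 above the 0.1% diet (limma adjusted p = 0.926), and 0.48 above it without either replicate 1 of the 0.1% diet or replicate 2 of the 1% diet. The other 3 Thrb probe sets were unmeasured, at 8.48, 6.28 and 9.51, so the measured one has no second reading of the same gene.

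Klf9, a zinc finger transcription factor induced by thyroid hormone and by glucocorticoids, varied most. Its measured probe set read 9.39, 10.02, 10.39 and 10.31 log2 in control. With 0.1% wakame it read 10.78, 10.14, 10.57 and 11.62, and with 1% wakame 11.34, 11.40, 9.57 and 10.44. In each wakame diet 3 of 4 livers lay above every control, and the fourth lay within the control range. The highest and lowest of the 12 livers were 4.69-fold apart. The within-diet SD of 0.669 log2 exceeded that of 92.2% of measured probe sets.

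The mean of Klf9 was 10.03 ± 0.45 in control, 10.78 ± 0.62 with 0.1% wakame and 10.69 ± 0.86 with 1% wakame (SD, n = 4). It was 0.75 ± 0.44 log2 (SE) above control with 0.1% wakame (interval −0.22 to 1.72, limma adjusted p = 0.563). With 1% wakame it was 0.66 ± 0.44 above (interval −0.31 to 1.63, limma adjusted p = 0.455). Single rats moved both values: with 1 array left out in turn, the 1% value ran from 0.42 without replicate 2 of that diet to 1.03 without its replicate 3, with limma adjusted p from 0.204 to 0.736. The 0.1% value ran from 0.47 without replicate 4 of that diet to 0.96 without its replicate 2, with limma adjusted p from 0.474 to 0.879. Both comparisons share the same control livers. Between the wakame diets the difference was −0.09 ± 0.44. With the Gapdh 3-prime minus 5-prime difference as a covariate, the 1% value was 0.24 and the 0.1% value 0.68. The difference between the wakame diets was then −0.44. The covariate itself averaged 1.05 log2 in control, 1.08 with 0.1% wakame and 1.21 with 1% wakame. RNA integrity and the 1% diet can therefore be told apart only in part by this fit. The 2 other probe sets of Klf9 were unmeasured, at 6.41 and 6.06.

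Gpd2, the mitochondrial glycerol-3-phosphate dehydrogenase and a classical hormone target in liver, had the smallest p of the members. Control livers read 7.26, 7.29, 7.13 and 7.31 log2, livers of the 0.1% diet 7.60, 7.33, 7.38 and 7.32, and livers of the 1% diet 7.60, 7.47, 7.45 and 7.22. All 4 livers of the 0.1% diet lay above all controls, by 0.01 log2 at the closest. Groups did not overlap in 5.86% of all measured probe sets in that comparison. In the 1% diet 3 of 4 lay above all controls.

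The mean of Gpd2 was 7.25 ± 0.08 in control, 7.41 ± 0.13 with 0.1% wakame and 7.44 ± 0.16 with 1% wakame (SD, n = 4). The difference from control was 0.16 ± 0.09 log2 (SE) for 0.1% wakame, with an unadjusted p of 0.121 and an adjusted p of 0.568 by limma. For 1% wakame it was 0.19 ± 0.09, with 0.0738 and 0.315. The intervals reached from −0.05 to 0.37 and from −0.02 to 0.40, so on this scale a rise above 1.32-fold lies outside both. With 1 array left out in turn, the 1% value ran from 0.13 to 0.26, with limma adjusted p from 0.173 to 0.537. It was lowest without replicate 1 of that diet. It was highest without its replicate 4, with an unadjusted p of 0.0152 and an adjusted p of 0.173 by limma. The 0.1% value ran from 0.10 without replicate 1 of that diet to 0.19 without its replicate 4. Its limma adjusted p ran from 0.516 to 0.769. With the Gapdh covariate the 1% value was 0.08 and the 0.1% value 0.14. As for Klf9, that fit tells RNA integrity and the 1% diet apart only in part. The second Gpd2 probe set was unmeasured, at 7.17.

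Bcl3, which encodes a nuclear cofactor of NF-kappaB and is induced by thyroid hormone in liver, moved least. Control livers read 7.05, 7.24, 7.24 and 7.10 log2, those of the 0.1% diet 7.28, 7.10, 6.99 and 7.17, and those of the 1% diet 7.22, 7.20, 7.18 and 7.10. The means were 7.16 ± 0.10, 7.14 ± 0.12 and 7.18 ± 0.05 (SD, n = 4), and the diets overlapped. The difference from control was −0.02 ± 0.08 (SE) for 0.1% wakame and 0.02 ± 0.08 for 1% wakame, with limma adjusted p of 0.958 and 0.937. The intervals allow changes from 0.875-fold to 1.11-fold and from 0.900-fold to 1.14-fold. Both other Bcl3 probe sets were unmeasured, at 6.77 and 6.60.

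**Figure D2:**
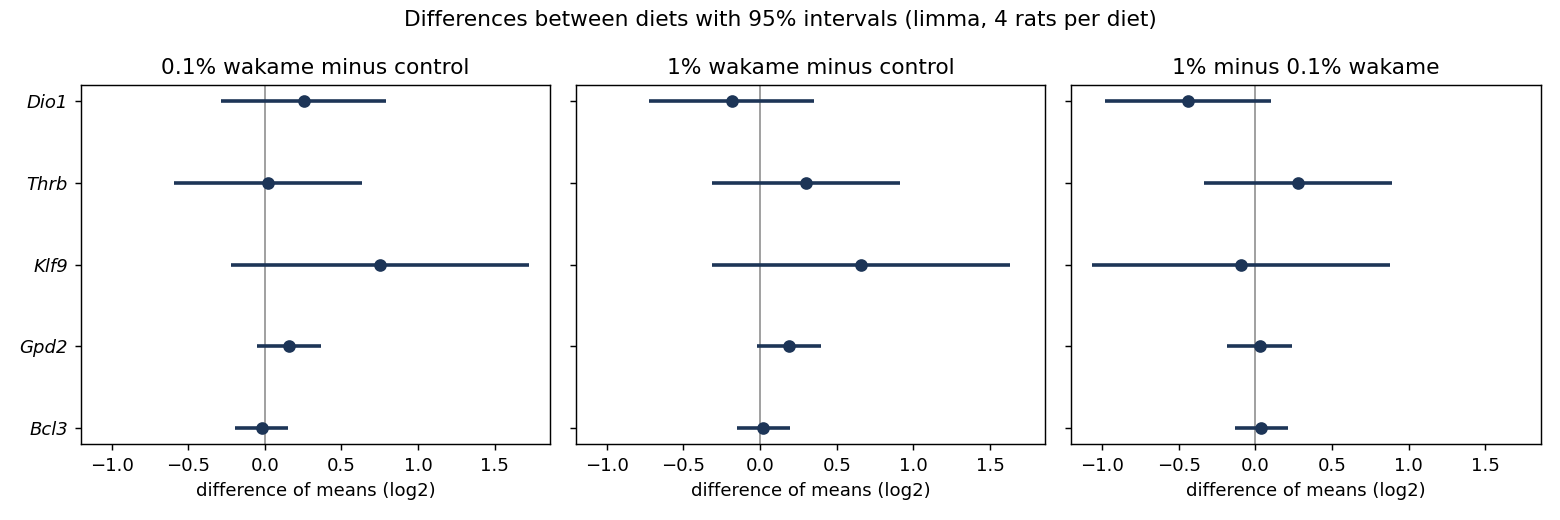
Differences of diet means in log2 for the 5 measured genes (points) with 95% intervals from limma (lines), 1 panel per comparison. Every interval includes 0, the widest being those of Klf9 and the narrowest those of Bcl3.

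The share of each gene's variance that lay between diets fell on both sides of the median of all measured probe sets. It was 36.0% for Gpd2, 25.0% for Klf9, 24.3% for Dio1, 12.4% for Thrb and 3.72% for Bcl3. The median over all measured probe sets was 21.4%, and 72.6% of them had a smaller share than Gpd2. Most of the variation of these genes therefore lay between rats on the same diet.

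**Figure D3:**
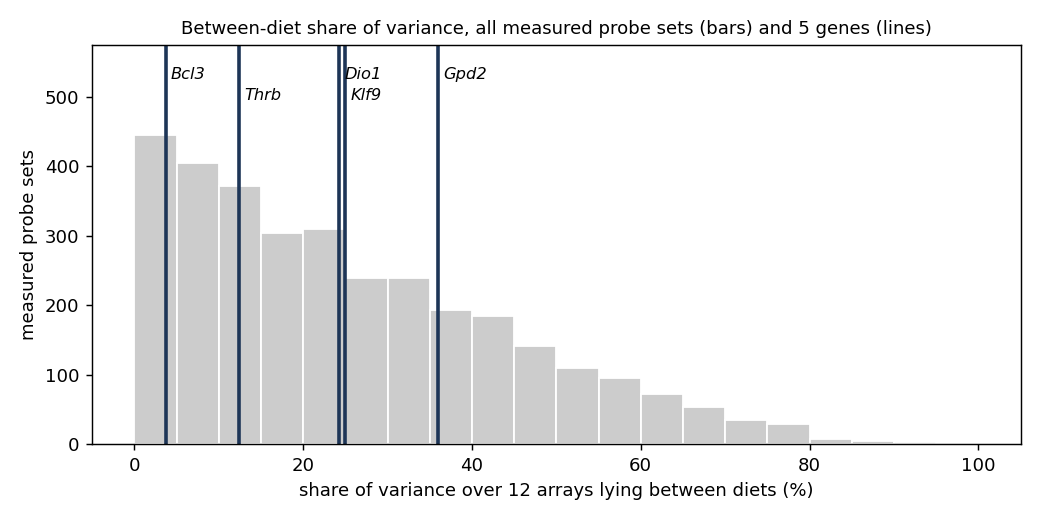
Histogram of the percent of variance over 12 arrays that lies between diets, for the 3240 measured probe sets (bars, 5 percentage points wide), with the 5 measured genes as vertical lines. Bcl3 and Thrb lie below the median of 21.4%, and Dio1, Klf9 and Gpd2 above it.

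Relations among the measured genes were computed across the 12 livers. For 10 pairs of genes Pearson's r ran from −0.29 for Dio1 and Bcl3 to 0.40 for Klf9 and Gpd2. None passed a permutation test with 100000 resamples (two-sided). The lowest unadjusted p was 0.2 for Pearson and 0.148 for Spearman, both for Klf9 and Gpd2, and the lowest values adjusted over the pairs were 0.608 and 0.787. For that pair Spearman's rho was 0.448, r was 0.482 without the 2 livers farthest from the Klf9 median, and 0.158 for deviations from the diet means. For Dio1 and Gpd2 r was 0.305 and rho 0.273, with 0.172 without the 2 farthest livers and 0.459 for deviations from the diet means. For Dio1 and Bcl3 rho was −0.315, and r was −0.703 without the 2 livers farthest from the Dio1 median and −0.224 for deviations from the diet means. For Dio1 and Thrb r was −0.06 and rho 0.126.

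Each member also had closer companions elsewhere on the array. The genes with the highest Pearson r over the 12 livers were selected from all measured probe sets with one symbol, so these r are descriptions with no test. Klf9 was closest to Usp2 (r = 0.90), Klf13 (0.886) and Slc37a4 (0.87). Dio1 was closest to Fga (0.781), RT1-CE16 (0.781) and Pde4d (0.777), and Thrb to Serpina3c (0.814), Zc3h11a (0.75) and C5 (0.747). Gpd2 was closest to Pank1 (0.825), Zbtb38 (0.80) and Gtf3c3 (0.737). Bcl3 was closest to Sez6 (0.934), Lrp1 (0.846) and Capns1 (0.816).

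The wider machinery of the hormone was read from 5 gene lists. In none of them did a probe set pass over all 3240, in either direction and in any of the 3 comparisons (limma). Counts at an unadjusted p under 0.05 are given below with 1 probe set per gene, the brightest measured one. For 1% wakame against control, 10.1% of all measured probe sets lay below control with such a p and 8.4% above it. For 0.1% wakame against control these shares were 6.73% and 4.72%. The median difference of all measured probe sets was −0.02 log2 in both. In 1% against 0.1% wakame, 1 gene of the 5 lists had such a p, Slco1a4.

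Of 17 receptor partners and coregulators, 5 were measured. For 1% wakame against control 1 of 5 lay below control at that level, 0 lay above it, and the list's median was −0.28 log2. That gene was Ncor1, the nuclear receptor corepressor that silences target genes when hormone is absent. It averaged 7.85 ± 0.30 log2 in control, 7.39 ± 0.13 with 0.1% wakame and 7.40 ± 0.13 with 1% wakame (SD, n = 4). The difference was −0.45 ± 0.14 (SE) for 1% wakame and −0.46 ± 0.14 for 0.1% wakame, with limma adjusted p of 0.13 and 0.228. Control values ran from 7.47 to 8.15 and overlapped both wakame diets, which ran from 7.31 to 7.58 and from 7.21 to 7.50.

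For 0.1% wakame against control Ncor1 was again the 1 of 5 below control at that level, and the median was −0.31 log2. In the same list the histone acetyltransferase Kat2b was at −0.46 ± 0.29 log2 (SE) for 1% wakame. Tbl1x, a subunit of the corepressor complex, was at −0.28 ± 0.28 for 1% wakame and at −0.56 ± 0.28 for 0.1% wakame. The coactivator Ppargc1a was at 0.26 ± 0.13 and 0.24 ± 0.13. The adjusted p of these 3 genes for 1% wakame was 0.429, 0.64 and 0.291 with limma.

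Of 13 further transporters and binding proteins, 6 were measured. For 1% wakame against control 2 of 6 lay above control at that level, 0 lay below it, and the list's median was 0.35 log2. Slco1a4, an organic anion transporter of the hepatocyte membrane that carries thyroid hormones among many substrates, ran from 10.39 to 11.65 in control, from 10.55 to 11.85 with 0.1% wakame and from 11.66 to 12.58 with 1% wakame. The 1% livers did not overlap the controls, as in 11.3% of all measured probe sets. The difference was 1.06 ± 0.33 (SE), with a limma adjusted p of 0.131. Its second probe set was at 0.90 ± 0.29, with a limma adjusted p of 0.137.

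For 0.1% wakame against control 0 of 6 reached that level, and the median was 0.18. For that diet the same Slco1a4 probe sets lay 0.21 and 0.08 log2 from control. Slc10a1, the bile acid importer NTCP, was at 0.08 ± 0.04 (SE) for 1% wakame (limma adjusted p = 0.26). Crym, a cytosolic protein that binds T3, was at 0.80 ± 0.65, and the uptake transporter Slco1b2 at 0.23 ± 0.20 in its brightest probe set and 0.02 ± 0.36 in the second. Crym spread widely within the wakame diets, with SDs of 1.21 and 1.16 beside 0.376 in control.

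Of 10 genes of deiodination and conjugation, 5 were measured. For 1% wakame against control 0 of 5 reached that level in either direction, and the median was −0.05 log2. For 0.1% wakame 1 of 5 lay below control at that level, Sult1e1, and the median was 0.08. Iyd, which recovers iodide from iodotyrosines, was at −0.05 ± 0.13 (SE) for 1% wakame and 0.16 ± 0.13 for 0.1% wakame. The estrogen sulfotransferase Sult1e1 was at −0.17 ± 0.28 and −0.64 ± 0.28, the latter with a limma adjusted p of 0.423. Sult1b1, a sulfotransferase that acts on thyroid hormones, was at 0.04 ± 0.11 for 1% wakame. The glucuronosyltransferase Ugt2b1 was at −0.32 ± 1.30 for 1% wakame and 2.47 ± 1.30 for 0.1% wakame, and its controls alone ran from 5.34 to 10.93.

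Of 22 other genes known to respond to the hormone in liver, 12 were measured. For 1% wakame against control 4 of 12 lay below control at that level, 1 lay above it, Pck1 of gluconeogenesis at 0.57, and the median was −0.75 log2. The 4 were genes of lipid synthesis and its NADPH supply. Malic enzyme, Me1, was at −1.96 ± 0.61 (SE) in its brightest probe set and −2.91 ± 0.77 in the second. The fatty acid synthase Fasn was at −2.30 ± 0.72 and −2.78 ± 0.80, Pgd of the pentose phosphate pathway at −0.97 ± 0.31, and the lipogenic regulator Srebf1 at −1.07 ± 0.37 and −0.59 ± 0.30.

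For 0.1% wakame against control 3 of 12 lay below control at that level, Fasn, Me1 and Pgd, and 3 above, Pck1, Cpt1a and Cyp7a1, with a median of −0.33. Pck1, Cpt1a and Cyp7a1 are named here after their values were seen. With 1% wakame, limma adjusted p for the 7 probe sets of Me1, Fasn, Pgd and Srebf1 ran from 0.0855 to 0.316, so none passed. Dio1, Klf9, Gpd2 and Bcl3 in the same comparison were at −0.19, 0.66, 0.19 and 0.02 log2. Genes of lipid synthesis are known to respond to feeding and insulin as well as to the hormone. The cause of their values here was not tested. A difference between the groups of genes was not tested.

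Of 19 other selenoproteins and factors of selenocysteine synthesis, listed because Dio1 is a selenoenzyme, 7 were measured. For 1% wakame against control 1 of 7 lay below control at that level, 0 lay above it, and the median was −0.03 log2. That gene was Selenok, a protein of the endoplasmic reticulum, at −0.44 ± 0.18 (SE, limma adjusted p = 0.228). For 0.1% wakame 0 of 7 reached that level. Thioredoxin reductase Txnrd1 was at −0.31 ± 0.22 in its brightest probe set and −0.11 ± 0.07 in a dimmer one, Selenos at 0.17 ± 0.19 and Selenot at −0.03 ± 0.05.

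**Figure D4:**
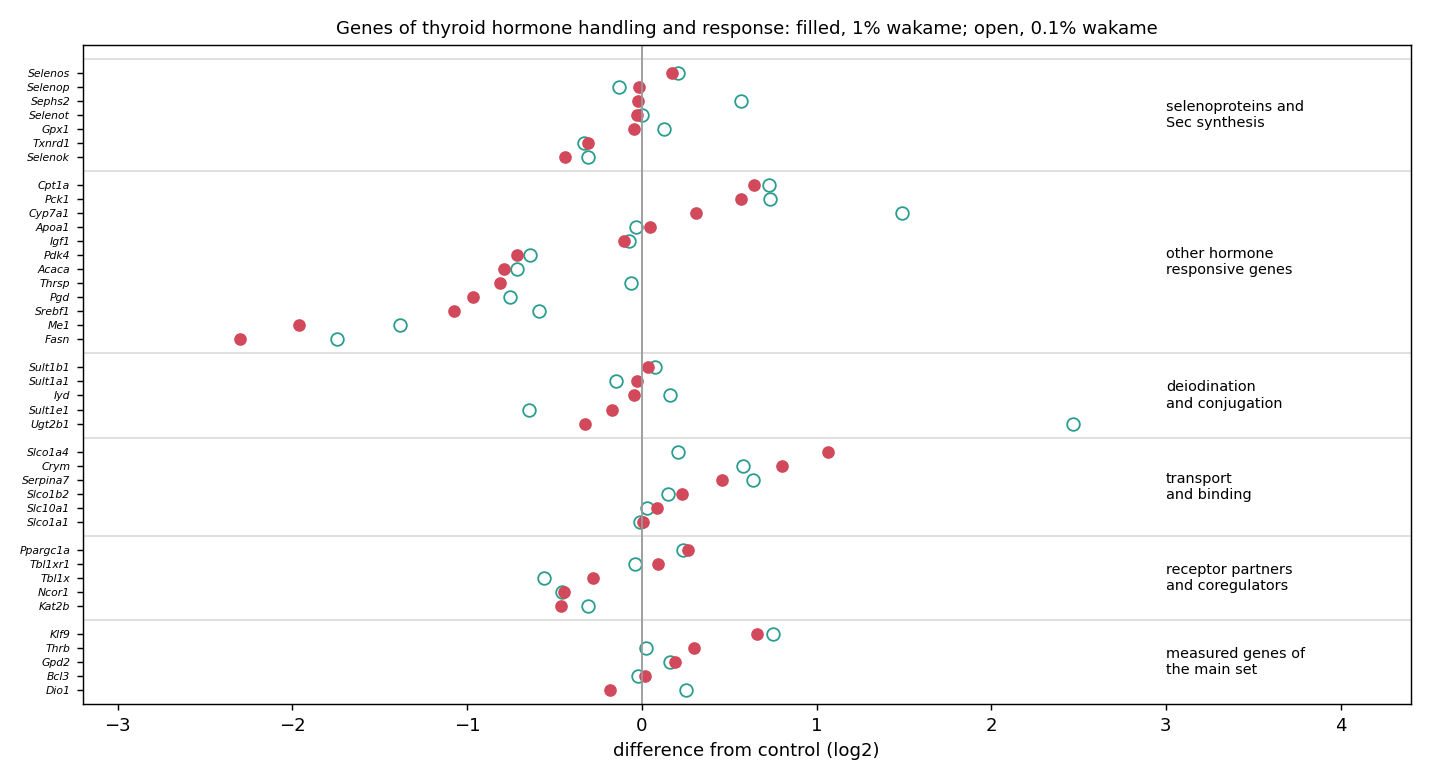
Difference from control in log2 for the brightest measured probe set of each gene, grouped by list; filled points are 1% wakame, open points 0.1% wakame, and both use the same 4 control livers. The members lie between −0.19 and 0.75, Fasn and Me1 reach −2.30 and −1.96 with 1% wakame, and Ugt2b1 reaches 2.47 with 0.1% wakame.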

How the data were processed

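Liver RNA of 12 rats was labelled from 100 ng by a 3-prime kit, per the labels' protocols. The authors deposited 1 table of log2 values per probe set, with a median near 6.59 on each array. The log2 scale was inferred from values of 3.15 to 14.6. The submitters' processing notes name R 2.7.2, while background correction, normalization and summarisation are not given there or in the labels. Values carry no detection call, and precision is limited by the number of arrays.

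Gene names came from the platform's annotation, with 20832 of 31099 probe sets under 1 symbol, 436 under several and 9831 unnamed. Of the 20832, 20764 had an identifier in RefSeq's GRCr8 table, under an unchanged symbol. List symbols that RefSeq no longer uses were replaced where 1 current gene matched.

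A mean per diet was fitted with limma 3.58.1 (R 4.3.3, trended variance) to all 12 arrays and 3240 measured probe sets, leaving out 57 control probe sets and 27802 nearly constant ones. P-values were adjusted by Benjamini-Hochberg. The fit was also run on simulated independent values with known changes, as a check of the code only. That run does not show the power to detect changes of the members. Each rat is a separate animal. Same-numbered arrays are not stated to be paired. Deviations from diet means were correlated between arrays of different diets. The 12 same-number correlations ran from −0.115 to 0.0924, and those of differently numbered arrays from −0.169 to 0.257.

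Alternatives were all probe sets, an SD limit of 0.1, no trend, the compared diets alone, a replicate block, median centring, quantile normalization, no dim probe sets, a Gapdh integrity covariate, robust empirical Bayes, and each array left out. The members and lists were chosen with earlier results of these data known. Named genes were all members, up to 4 genes of each list with the smallest p for 1% wakame against control, and the 3 genes most correlated with each measured member. Marker lists of 8 other cell types and tissues had 0 to 5 measured genes each. None of their probe sets passed in any comparison (limma).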

Additional observations from a re-analysis of the deposited data

Results flagged for a closer look

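Single livers stood apart from the other 3 of their diet in 6 of 75 groups of 4 examined, by Dixon's gap test at its 95% critical value. Chance gives about 1 in 20. For Dio1 it was replicate 1 of the 1% diet, at 7.31 log2 against 7.08 to 7.11. For Thrb they were replicate 1 of the 0.1% diet, at 7.57 against 6.72 to 6.85, and replicate 2 of the 1% diet, at 6.64 against 7.42 to 7.50. For Ncor1 it was replicate 2 of the 0.1% diet, at 7.58 against 7.31 to 7.34. For Crym it was replicate 4 of the 1% diet, at 7.38 against 9.51 to 9.77. For Selenot it was control replicate 4, at 10.98 against 10.86 to 10.88.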

How the results depend on the processing

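No member passed under any of the 22 alternatives, over 327 refitted differences (limma, lowest adjusted p = 0.173). Of the 15 differences of members between diets, 8 kept their sign throughout and 17 of the 327 refits changed it. With the Gapdh covariate Bcl3 went to −0.0582 for 1% wakame against control and −0.02435 for 1% against 0.1%, and Gpd2 to −0.06018 for 1% against 0.1%. For 1% wakame against control that covariate took Thrb from 0.3001 to 0.4378 and Dio1 from −0.1852 to −0.1779, with no change of sign. With median-centred arrays Bcl3 was 0.0043 for 0.1% wakame against control. With 1 array left out in turn, the change for 1% wakame against control ran from −0.3075 to 0.03712 in Dio1 and from −0.01591 to 0.04952 in Bcl3. For 0.1% wakame it ran from −0.1782 to 0.232 in Thrb and from −0.06856 to 0.02881 in Bcl3. For 1% against 0.1% wakame it ran from −0.3307 to 0.2805 in Klf9, from −0.02741 to 0.1002 in Gpd2 and from −0.008535 to 0.08883 in Bcl3.

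The counts over all probe sets moved more. The 54 calls for 1% wakame against control became 9 with all 31042 probe sets tested, 28 with the compared diets alone, 4 with the Gapdh covariate, 29 with robust empirical Bayes, and 7 (without replicate 2 of the 1% diet) to 49 with 1 array left out. The 2 calls for 0.1% wakame against control became 5 with all probe sets, 0 with the compared diets alone, 1 with median centring, 1 with quantile normalization, and 0 to 8 with 1 array left out. For 1% against 0.1% wakame there were 6 calls with all probe sets and 0 to 1 with 1 array left out. The F-test's 6 calls became 12 with all probe sets, 13 at an SD limit of 0.1, 2 with the Gapdh covariate, and 2 to 19 with 1 array left out. The cause of these shifts was not tested. With the replicate number as a block the counts were 12 for 1% wakame against control, 0 for 0.1% wakame against control and 1 for the F-test. The array with the same number was the best match in 4 of 24 combinations of an array and another diet, and the block changed no call of a member. Bcl3 could not be fitted at an SD limit of 0.1. Background and detection calls were not used, so the depth of signal under the dimmer probe sets is unknown.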
